A study of Mus musculus with 17 samples.

Results

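Mouse embryonic stem cells that had spent 4 days in LFAI medium were compared, across all genes, with the same 2 cell lines kept in L2i medium. In this study L2i holds the naive state of pluripotency, and LFAI drives cells toward the primed state. The comparison used 4 of the 17 RNA-seq libraries of the series, picked by their labels: R1 and CGR8 in L2i, and R1 and CGR8 after 4 days in LFAI. Both are established mouse embryonic stem cell lines and served as each other's biological replicate, so each group had 2 libraries. The L2i medium contained LIF, 3 µM CHIR99021, an inhibitor of the kinase GSK3 that stabilizes beta-catenin, and 0.1 µM PD325901, an inhibitor of the ERK-activating kinase MEK. The LFAI medium contained LIF, 12 ng/ml FGF2, 20 ng/ml human Activin A, and 2 µM IWP2, which blocks secretion of Wnt ligands. All 4 cultures thus received LIF in serum-free N2B27, on plates coated with gelatin and a basement membrane extract. CHIR99021 and PD325901 were removed and FGF2, Activin A and IWP2 added together, so the parts of these components cannot be told apart. The L2i libraries came from passage 32 of R1 after 10 passages in this medium, and from passage 31 of CGR8 after 8. The LFAI libraries came from passage 26 of R1 after 3 passages in L2i, and from passage 33 of CGR8 after 9. The p-values below come from a fit to 8 libraries of these lines, the 4 compared and 4 from other conditions of the series. Line was a term of this fit, so a constant difference between the lines is not part of the error. The error is how unevenly the lines differed from condition to condition, over all 8 libraries. With 1 library per line and condition, spread between cultures of the same line was not measured separately.

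Naive cells correspond to the epiblast of the blastocyst before implantation. They depend on transcription factors such as Nanog, Esrrb, Klf4 and Tfcp2l1, and in culture they are held by LIF, active beta-catenin signalling and blocked ERK signalling. Around implantation the epiblast dismantles this network, raises Otx2, Fgf5 and the de novo DNA methyltransferases, becomes a polarized epithelium, and uses FGF and Nodal/Activin signals, while Pou5f1 stays on in both states.

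The 4 libraries held between 15135012 and 22593805 counts in genes, R1 in L2i the most, with 18733 to 20465 genes detected. Expression is given as counts per 1000000 gene counts (CPM) on TMM-scaled library sizes, always R1 first and CGR8 second. A gene was called where edgeR's quasi-likelihood test gave an adjusted p under 0.05. Differences are log2(LFAI/L2i) with their standard error (SE). Of 15525 tested genes, 7371 (47.5%) were called, 3573 (23%) higher in LFAI and 3798 (24.5%) lower. Counts of called members in the lists below are to be read beside these shares. The change was large as well as wide: 918 genes rose and 1202 fell at least 8-fold. The called-higher genes took 14.2% and 14.3% of all CPM in L2i and 28.5% and 28.3% in LFAI. The called-lower genes went from 28.8% and 30.2% to 14.3% and 13.7%. Both sets of genes were picked on these same libraries, so their shares move this way by selection. The median over all tested genes was 0.00 on the log2 scale, a value that TMM scaling largely sets. In 7358 of the 7371 called genes the 2 lines moved the same way. The calls were made on these same lines, which favours such agreement, so it is not a replication. The groups did not overlap in 11484 (74.0%) of the tested genes. The log2 differences of the 2 lines had r = 0.897 across genes, which are not independent replicates. Without the R1 L2i library 2249 genes were called higher and 2777 lower. In every called gene named below, both LFAI libraries lay on the same side of both L2i libraries.

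**Figure D1:**
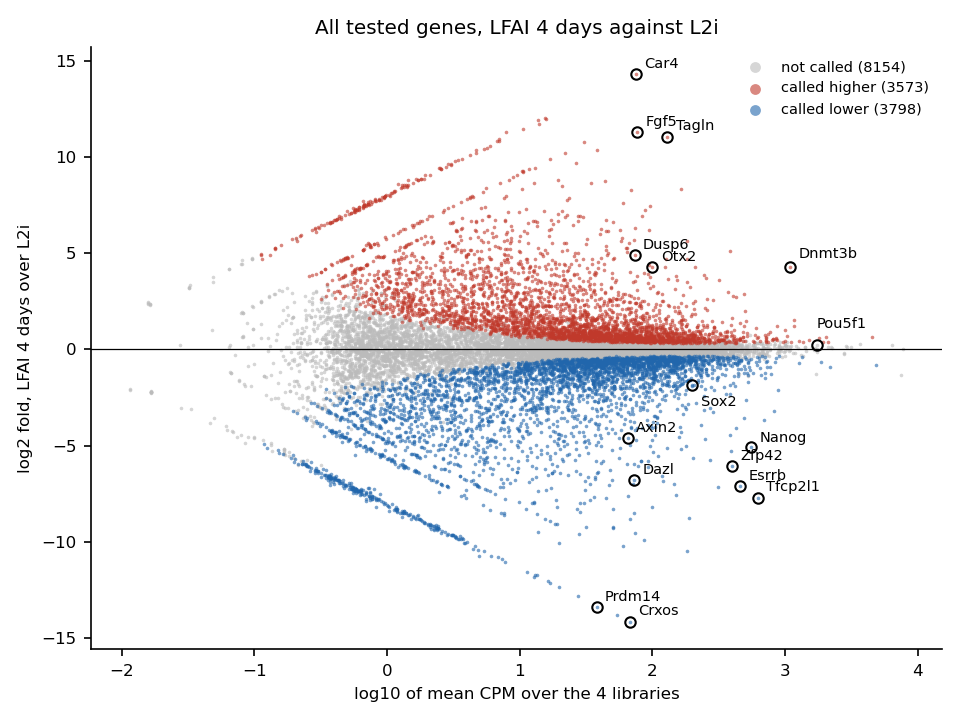
Log2 difference of LFAI at 4 days over L2i (y axis) against the log10 of the mean CPM of the 4 libraries (x axis), 1 point per tested gene, red for the 3573 genes called higher, blue for the 3798 called lower and grey for those not called. Circles mark genes named in the text. Pou5f1 lies near 0, Dnmt3b, Otx2 and Fgf5 lie above, and Nanog, Esrrb and Tfcp2l1 lie below. The straight diagonal edges hold genes with no counts in the lower group.

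A separate R1 time course, grown on gelatin and fetal calf serum and sequenced with another version of the protocol, had 1 library a day and was used as a description without a test. Among called genes found there, 3132 of 3413 higher genes (91.8%, against 49.5% of all shared genes) were also above day 0 at day 4 of LFAI. Likewise 3263 of 3721 lower genes (87.7%, against 50.5% of all) were below day 0. Where a called gene named below had the other sign there, its value is given.

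All 20 tested naive pluripotency factors fell, in both lines and without overlap. Of all tested genes 24.5% were called lower, and in 74.0% the groups did not overlap. The median log2 difference of the naive factors was -6.99, and their summed CPM fell from 8223 to 208.4 in R1 and from 7866 to 238.9 in CGR8. Nanog (ENSMUSG00000012396, chr6:122707489-122714633, + strand, GRCm38), the homeodomain factor at the centre of the naive network, measured 1169 and 971 CPM in L2i and 27.0 and 40.1 CPM in LFAI. Both LFAI values lay below both L2i values, a log2 difference of -5.05 ± 0.27 (adjusted p = 1.5e-06). Esrrb, an orphan nuclear receptor that beta-catenin signalling and Nanog both sustain, measured 906 and 909 CPM in L2i and 8.37 and 4.44 CPM in LFAI (-7.13 ± 0.36, adjusted p = 1.1e-06). Tfcp2l1, a target shared by LIF and CHIR99021, measured 1095 and 1392 CPM in L2i and 7.61 and 3.79 CPM in LFAI (-7.71 ± 0.50, adjusted p = 4.1e-06). In all 3 the line with the lower L2i level was still far above both LFAI libraries.

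The Kruppel-like factors differed among themselves. Klf4, a direct STAT3 target, fell from 182 and 295 to 2.01 and 2.03 CPM (-6.85 ± 0.32), and Klf2, which blocked ERK signalling sustains, fell from 362 and 238 to 1.45 and 1.7 CPM (-7.57 ± 0.31). Klf5 fell least of the 20 members, from 81.0 and 107 to 28.9 and 16.5 CPM (-2.03 ± 0.29, adjusted p = 0.00038). Zfp42, also called Rex1 and the classical marker for exit from the naive state, fell from 885 and 696 to 12.5 and 10.6 CPM (-6.09 ± 0.18). After 35 h of LFAI in the same lines Zfp42 still measured 637 and 684 CPM, while Nanog measured 179.7 and 325 CPM.

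A pair of members had no counts left in LFAI. Prdm14, which represses de novo methyltransferases and FGF signalling, measured 77.6 and 73.9 CPM in L2i and 0 counts in both LFAI libraries, at least 791-fold lower. The homeobox gene Crxos measured 151 and 120.0 CPM in L2i and also had 0 counts in LFAI, at least 1439.6-fold lower. These bounds replace the 0 by 3 counts over both libraries and cover counting error only. Tbx3, a T-box factor downstream of LIF, and Nr5a2, a nuclear receptor that can activate Pou5f1, fell from 171 and 175 to 0.315 and 0.0653 CPM and from 143 and 148 to 0.503 and 0.261 CPM. Dppa5a, an abundant RNA-binding protein of stem cells, kept 88.0 and 119.9 CPM in LFAI after 1384 and 1166 CPM in L2i (-3.66 ± 0.27). In the R1 time course the median of the list was -4.17, and Dppa5a differed by -0.59. The homeobox gene Gbx2 fell from 16.9 and 29.1 to 1.07 and 0.327 CPM (-5.13 ± 0.76), but stood at 0.11 in the time course, and its call was lost with those libraries added.

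The list also holds genes outside the transcription factor network proper. Tdh, threonine dehydrogenase, on which mouse stem cells rely for one-carbon units, fell from 755 and 757 to 16.2 and 23.6 CPM (-5.27 ± 0.18). Dppa3, or Stella, which protects against DNA methylation in the early embryo, fell from 115 and 86.8 to 0.126 and 0.196 CPM (-9.23 ± 0.70). Nr0b1, or Dax1, an orphan receptor that binds Pou5f1, fell from 61.9 and 83.7 to 0.441 and 1.05 CPM (-6.63 ± 0.22). At 35 h Nr0b1 measured 108 and 157 CPM, above both L2i libraries, so the order in time differed between members, a difference that was not tested.

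**Figure D2:**
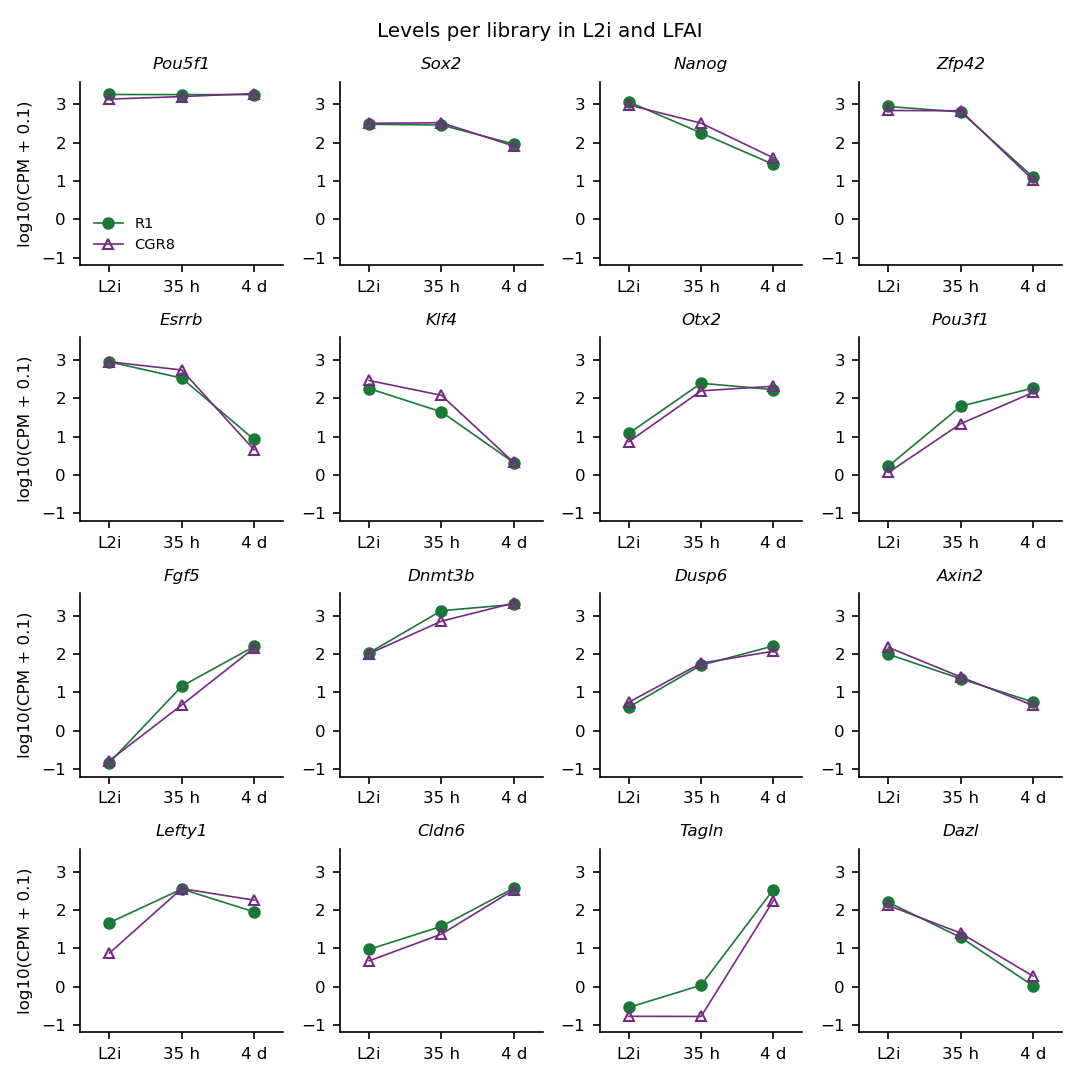
Levels of 16 genes as log10(CPM + 0.1), in L2i, after 35 h and after 4 days of LFAI. Green circles are R1 and purple triangles are CGR8, 1 library each, and the lines join libraries of the same cell line without implying that they are the same culture. Pou5f1 is level, the naive factors drop at different times, and Fgf5, Pou3f1, Cldn6 and Tagln climb by orders of magnitude.

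The core factors that naive and primed cells share split 3 ways, with 3 of 14 higher, 6 lower and 5 not called. Pou5f1, the POU factor that defines pluripotent cells, measured 1823 and 1378 CPM in L2i and 1810.0 and 1926 CPM in LFAI. The LFAI values sat within or just above the range of the L2i values (0.23 ± 0.16, adjusted p = 0.27). Its partner Sox2 fell from 304 and 322 to 92.3 and 81.9 CPM (-1.84 ± 0.15, adjusted p = 1.3e-05). Fgf4, the FGF ligand that Pou5f1 and Sox2 activate together, fell from 293 and 259 to 99.3 and 75.5 CPM (-1.66 ± 0.21). The chromatin proteins Dppa2 and Dppa4, which form a heterodimer, parted: Dppa2 fell from 69.7 and 65.5 to 7.61 and 8.17 CPM (-3.10 ± 0.16), while Dppa4 measured 46.8 and 45.0 CPM in L2i and 49.8 and 54.0 CPM in LFAI (adjusted p = 0.34). In the time course Dppa2 was higher at day 4 than at day 0 (0.65 on the log2 scale), and with those libraries added to the fit its call was lost. Utf1, a chromatin factor of the epiblast, rose from 123 and 48.6 to 528 and 444 CPM (2.57 ± 0.29), and Lin28a, the RNA-binding protein that blocks let-7 maturation, rose from 98.9 and 131 to 792 and 935 CPM (2.91 ± 0.21).

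Genes of the formative and primed epiblast rose in 13 of 17 tested cases, with 2 lower and a median of 3.73 (2.94 in the time course). The remaining listed gene, Cer1, had 0 counts in all 4 libraries and was not tested. Otx2, a homeobox factor that redirects Pou5f1 to new enhancers, rose from 12.1 and 7.3 to 170.5 and 209 CPM (4.28 ± 0.37, adjusted p = 1.9e-05). Pou3f1, also called Oct6, rose from 1.61 and 1.06 to 188 and 144 CPM (6.94 ± 0.53). Fgf5, the standard marker of the postimplantation epiblast, rose from 0.046 and 0.0664 to 159 and 146 CPM. The L2i libraries held 2 counts together, so its count ratio of 2810.1 has a 95% counting interval from 777 to 23211. Fgf15, a second FGF ligand of the early embryo, rose from 0.276 and 0.0664 to 76.3 and 99.3 CPM (8.79 ± 0.69).

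Dnmt3b, the de novo methyltransferase of the epiblast, rose from 109 and 103 to 1998 and 2175 CPM (4.31 ± 0.28) and was among the genes with the largest gain in CPM. The SoxC factor Sox11 rose from 1.79 and 1.53 to 56.7 and 49.9 CPM (5.00 ± 0.20), and Sox3, a close relative of Sox2, rose from 2.67 and 0.664 to 34.6 and 25.2 CPM (4.20 ± 0.40). The zinc finger factors Sall2 and Zic2 rose from 9.7 and 9.3 to 243 and 245 CPM and from 39.9 and 45.2 to 121 and 168 CPM. Grhl2, which opens enhancers of epithelial genes, rose from 6.34 and 7.64 to 105 and 80.2 CPM (3.73 ± 0.41). Against these stood Nkx1-2, a homeobox gene of the caudal epiblast, which fell from 50.3 and 71.5 to 0.315 and 0.131 CPM (-8.01 ± 0.40). Tcf15, a transient marker on the way to priming, measured 4.64 and 2.12 CPM in L2i and 3.52 and 2.35 CPM in LFAI, with 24.0 and 23.2 CPM at 35 h, and was not called.

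T and Eomes, genes of the primitive streak, were low in both media. T, or Brachyury, fell from 2.44 and 8.43 to 0.503 and 0.523 CPM (-3.22 ± 0.66), a call lost without either CGR8 library. Eomes rose from 3.54 and 3.25 to 15.2 and 6.8 CPM (1.62 ± 0.33), a call lost with the time course added, where it was lower at day 4 (-0.98). Without either CGR8 library 1 in place of 2 members of the list was called lower.

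Other FGF ligands and receptors had no common direction, with 5 of 15 higher, 4 lower and a median of 0.01. Fgf8, a ligand of the streak, rose from 0 and 0.0664 to 1.95 and 4.25 CPM, from 1 count in L2i, a count ratio of 113 (95% counting interval 19.9 to 4521). Fgf3 fell from 10.6 and 7.24 to 1.07 and 0.784 CPM (-3.25 ± 0.46). Fgfr1, the main FGF receptor of the epiblast, measured 235 and 130.4 CPM in L2i and 187 and 169 CPM in LFAI, overlapped between media and was not called (adjusted p = 0.95). Without R1 L2i or without R1 LFAI, and also without the line as a block, 3 members were called higher.

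With the MEK inhibitor gone and FGF2 present, 17 of 27 tested feedback inhibitors and targets of ERK signalling rose and 2 fell, with a median of 1.60 (1.12 in the time course). The part of each medium component was not tested. Dusp6, the phosphatase that inactivates ERK in the cytoplasm, rose from 4.04 and 5.45 to 164 and 120.0 CPM (4.92 ± 0.24, adjusted p = 9.1e-07). The nuclear phosphatase Dusp4 rose from 2.25 and 1.66 to 52.9 and 30.4 CPM (4.40 ± 0.27). Other feedback inhibitors rose with them: Spry4 from 2.16 and 0.93 to 44.1 and 26.5 CPM (4.46 ± 0.42) and Spred3 from 2.8 and 3.85 to 46.8 and 53.8 CPM (3.94 ± 0.33). In these 4 genes the media did not overlap, which held for 74.0% of all tested genes.

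Immediate-early genes did not move as a block. Egr1 rose from 0.368 and 0.73 to 39.8 and 25.7 CPM (5.92 ± 0.44) and Jun rose from 2.25 and 2.32 to 46.1 and 42.7 CPM (4.28 ± 0.33). Fos measured 0.689 and 0.996 CPM in L2i and 0.944 and 0.523 CPM in LFAI and was not called (adjusted p = 0.82). The ETS factor Etv5, a usual readout of FGF signalling, fell from 675 and 608 to 442 and 382 CPM (-0.64 ± 0.16), although this call was lost without the R1 L2i library or the CGR8 LFAI library. Etv4 rose from 26.7 and 25.3 to 77.5 and 57.4 CPM (1.39 ± 0.35), but was lower in the time course (-0.46), and its call was lost without CGR8 L2i, without R1 LFAI, and with the time course added. Without the R1 LFAI library 10 in place of 17 members of the list were called higher. The 2 lower members became 0 without R1 L2i and 1 without CGR8 LFAI.

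Removal of CHIR99021 and addition of IWP2 went with a fall of 13 of 19 tested Wnt/beta-catenin targets, while 2 rose and the median was -2.62 (-2.37 in the time course). Axin2, the scaffold of the beta-catenin destruction complex and the most used readout of the pathway, fell from 99.3 and 151 to 5.54 and 4.51 CPM (-4.61 ± 0.23, adjusted p = 1.1e-06). Notum, a secreted enzyme that inactivates Wnt ligands, fell from 137 and 147 to 1.38 and 0.784 CPM (-7.02 ± 0.23). Sp5, a zinc finger repressor, fell from 28.6 and 44.8 to 0.126 and 0 CPM, with 2 counts left in LFAI and a count ratio of 549 (95% counting interval 152 to 4542). Tnfrsf19, a receptor known as Troy, fell from 72.8 and 87.8 to 1.45 and 1.18 CPM (-5.91 ± 0.28). The caudal homeobox genes Cdx1 and Cdx2 had 0 counts in both LFAI libraries. They had measured 43.3 and 66.0 CPM and 6.89 and 5.18 CPM in L2i, so they were at least 547-fold and 64.4-fold lower.

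The 2 members that rose were Lef1, from 8.09 and 9.03 to 63.2 and 57.7 CPM (2.82 ± 0.44), itself a DNA-binding partner of beta-catenin, and Nkd2, from 1.15 and 0.863 to 7.61 and 5.29 CPM (2.66 ± 0.42), an inhibitor of the pathway. The cyclin gene Ccnd1 was not called, at 415 and 414 CPM in L2i and 379 and 310.2 CPM in LFAI. It was called lower only with the time course added (-0.48). Beta-catenin itself (Ctnnb1) measured 982 and 1097 CPM in L2i and 908 and 962 CPM in LFAI and was not called either (adjusted p = 0.33). Among 30 tested ligands, receptors and TCF factors 10 rose and 7 fell. The receptor Fzd7 rose from 18.1 and 19.8 to 220.1 and 267 CPM (3.68 ± 0.19), while the receptor Fzd10 fell from 60.0 and 81.3 to 4.85 and 4.51 CPM (-3.89 ± 0.32). Porcn, the acyltransferase that IWP2 inhibits, fell from 18.5 and 19.5 to 0.818 and 1.57 CPM (-4.01 ± 0.36).

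The regions just upstream of 3 of these genes show how the sequence bound by TCF/LEF factors is spread over them. The motif CTTTGA was searched on both strands (TCAAAG on the other). Each line gives the 250 bases before the RefSeq start (GRCm38.p6), on the gene's strand, with the motif in capitals.

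Axin2 (chr11:108920099-108920348, + strand, no match): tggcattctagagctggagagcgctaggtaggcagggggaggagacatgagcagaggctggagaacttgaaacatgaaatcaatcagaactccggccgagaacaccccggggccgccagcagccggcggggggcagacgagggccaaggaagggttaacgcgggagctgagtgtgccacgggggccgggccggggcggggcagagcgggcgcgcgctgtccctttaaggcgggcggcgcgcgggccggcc
Sp5 (chr2:70474673-70474922, + strand, 2 matches): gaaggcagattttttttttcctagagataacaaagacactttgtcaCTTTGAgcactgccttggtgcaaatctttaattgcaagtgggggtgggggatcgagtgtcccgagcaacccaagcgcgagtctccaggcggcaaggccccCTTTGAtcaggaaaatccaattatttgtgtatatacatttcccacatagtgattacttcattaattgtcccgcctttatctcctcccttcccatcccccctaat
T (chr17:8434173-8434422, + strand, 1 match): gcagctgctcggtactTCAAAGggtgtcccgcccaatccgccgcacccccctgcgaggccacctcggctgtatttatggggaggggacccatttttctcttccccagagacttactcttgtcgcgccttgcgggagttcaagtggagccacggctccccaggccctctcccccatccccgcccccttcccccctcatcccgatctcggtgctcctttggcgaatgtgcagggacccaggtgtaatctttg

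In windows of 300 bases around the start, 3 of the 9 called-lower Wnt targets with a promoter in the table held CTTTGA (33.3%), against 18.2% of 27025 genes. The motif was thus found in some members and not in others, and a match describes letters, not binding.

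The Nodal/Activin pathway showed no common direction, with 7 of 20 tested members higher, 5 lower and a median of 0.21, although Activin A was added. Skil, a feedback repressor of SMAD proteins, rose from 48.6 and 41.6 to 219.5 and 222 CPM (2.28 ± 0.32, adjusted p = 0.00036), and Foxh1, the DNA-binding partner of SMAD2, rose from 65.0 and 55.0 to 174 and 165 CPM (1.51 ± 0.17). The antagonist Lefty1 was uneven between lines in L2i, at 46.4 and 7.37 CPM in L2i and 89.1 and 180.4 CPM in LFAI (2.31 ± 0.70, adjusted p = 0.023). Its call was lost without the CGR8 LFAI library and with DESeq2's Wald test. Lefty2 measured 61.9 and 10.2 CPM in L2i and 43.5 and 39.9 CPM in LFAI and was not called. After 35 h Lefty1 measured 352 and 361 CPM and Lefty2 306 and 448 CPM, in both lines above the 4-day values. Without R1 L2i, Lefty2 was called higher.

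RNA of the ligand and of a protease that processes it went down, while processing itself was not measured. Nodal fell from 127 and 106 to 38.2 and 62.5 CPM (-1.24 ± 0.21), and Pcsk6, a protease that cleaves the Nodal precursor, fell from 157 and 143 to 21.9 and 16.1 CPM (-2.97 ± 0.31). The effector Smad3 fell from 78.6 and 81.8 to 31.3 and 23.4 CPM (-1.55 ± 0.21), whereas Smad2 was not called, at 56.5 and 63.3 CPM in L2i and 52.0 and 46.5 CPM in LFAI. Of 19 tested genes of the related BMP pathway 3 rose and 8 fell, the BMP targets Id3 (from 17.0 and 19.4 to 8.81 and 4.38 CPM) and Id4 (from 6.66 and 7.24 to 0.0629 and 0.457 CPM) among the latter. Id1 measured 2.9 and 3.19 CPM in L2i and 5.85 and 3.46 CPM in LFAI and was called only without CGR8 LFAI. Only 1 BMP member was called higher without R1 L2i or without R1 LFAI.

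LIF was present in both media, yet 13 of 19 tested genes of its pathway fell and 4 rose (median -1.48). Both receptor chains were lower. Lifr fell from 64.9 and 81.9 to 5.66 and 3.46 CPM (-3.99 ± 0.25, adjusted p = 3.7e-06), and Il6st, the shared chain gp130, fell from 181 and 227 to 39.3 and 27.8 CPM (-2.59 ± 0.22). Stat3 itself fell from 111 and 153 to 72.3 and 67.2 CPM (-0.91 ± 0.21), a call lost without CGR8 L2i. Socs3, the feedback inhibitor that STAT3 induces, fell from 22.8 and 42.3 to 10.3 and 7.32 CPM (-1.88 ± 0.53). This call was lost without either CGR8 library and with the time course added, where Socs3 was higher at day 4 (0.54). The kinase genes of the Pim family went opposite ways, Pim1 falling from 185 and 157 to 37.6 and 18.5 CPM (-2.62 ± 0.34) and Pim2 rising from 19.8 and 22.6 to 611 and 877 CPM (5.13 ± 0.33). Several of the fallen members, Klf4 and Tfcp2l1 among them, are also naive factors, so the lists are not independent. With the time course added 10 in place of 13 members of the LIF list were called lower. Without R1 L2i 2 members were called higher.

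**Figure D3:**
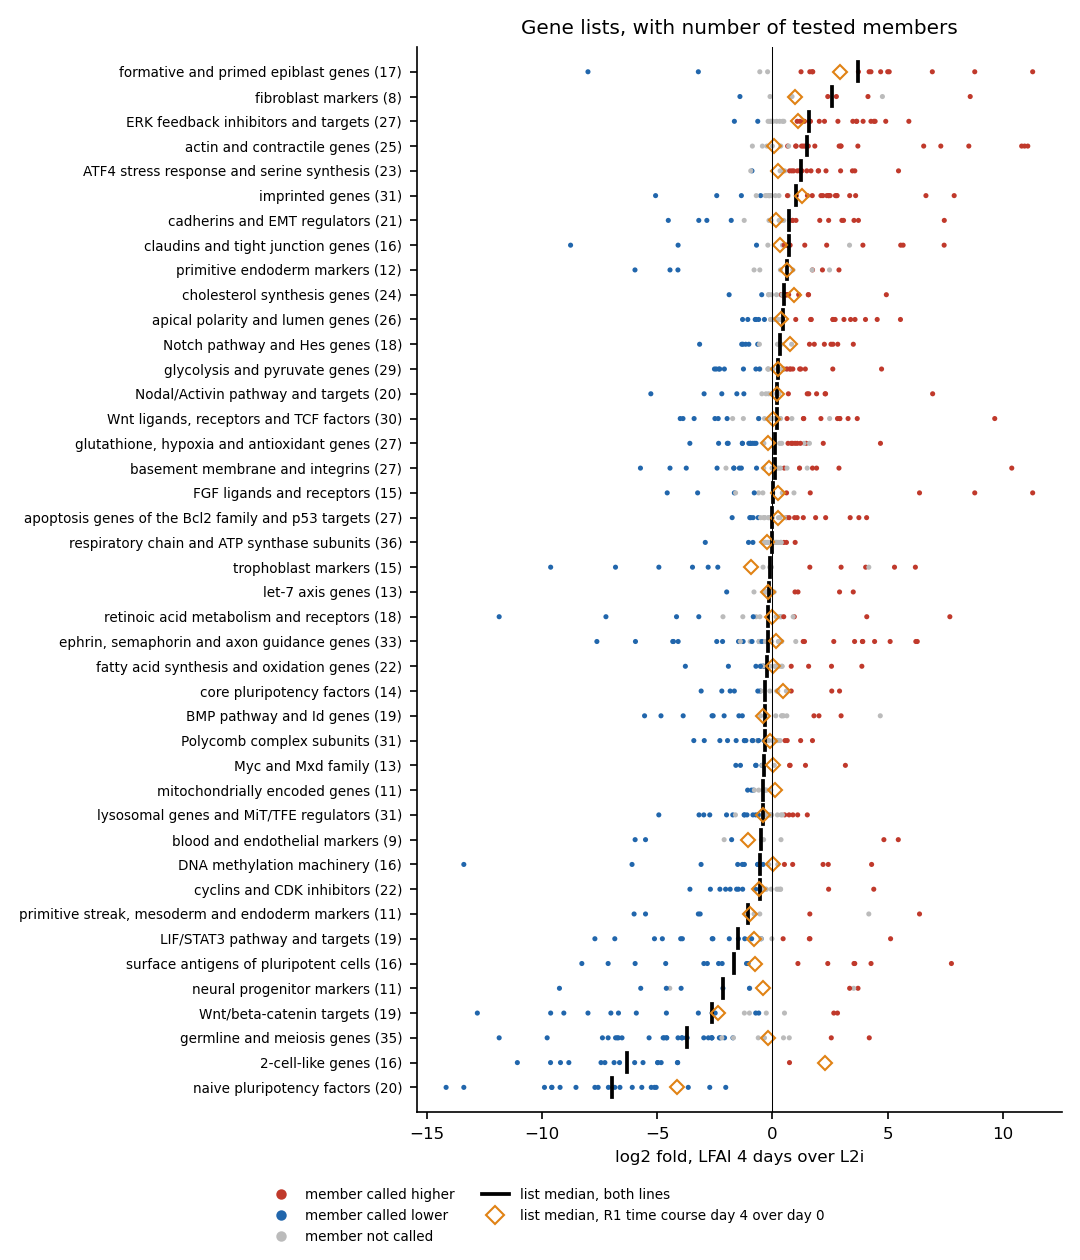
Log2 difference of LFAI over L2i (x axis) for the tested members of 42 gene lists (y axis, with the number of tested members), 1 dot per gene, red if called higher, blue if called lower and grey if not called. Black bars are list medians in the 2 lines and orange diamonds the medians in the R1 time course. Lists are ordered by their median, from naive factors at -6.99 to formative genes at 3.73, and the diamonds of the germline and 2-cell-like lists lie far from their bars.

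The DNA methylation machinery changed in both directions, with 5 of 16 genes higher and 9 lower. Both de novo enzymes rose: beside Dnmt3b, Dnmt3a went from 80.3 and 47.9 to 305 and 376 CPM (2.42 ± 0.37). Their cofactor Dnmt3l measured 40.8 and 21.3 CPM in L2i and 10.7 and 10.5 CPM in LFAI and fell (-1.51 ± 0.22). At 35 h it stood at 597 and 469 CPM, and in the time course it was above day 0 at day 4 (2.83). Its call was lost with the time course added. Among the TET enzymes, which oxidize methylcytosine, Tet2 fell from 174 and 188 to 2.89 and 2.35 CPM (-6.10 ± 0.29, adjusted p = 9.1e-07) and Tet3 rose from 9.1 and 7.84 to 42.5 and 35.3 CPM (2.20 ± 0.18). Tet1 fell from 442 and 562 to 230.3 and 176 CPM (-1.31 ± 0.20), a call also lost with the time course added, where it was 0.31 at day 4. Uhrf1, which recruits the maintenance methyltransferase to replicated DNA, fell from 687 and 673 to 297 and 287 CPM (-1.22 ± 0.13), and Zfp57, which protects methylation at imprinted regions, fell from 289.5 and 353 to 41.2 and 33.1 CPM (-3.10 ± 0.21). DNA methylation itself was not measured.

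Many germline and meiosis genes carry CpG-rich promoters that become methylated after implantation. Of 35 tested members 27 fell and 2 rose, with a median of -3.71 (-3.13 with members at 0 counts set to their bound). Dazl, an RNA-binding protein of germ cells, fell from 158 and 131 to 0.944 and 1.76 CPM (-6.82 ± 0.46, adjusted p = 4.7e-06). Kit, a receptor kinase of primordial germ cells, fell from 553 and 696 to 5.1 and 3.53 CPM (-7.14 ± 0.44), and the genome-defence gene Tex19.1 fell from 133 and 155 to 7.99 and 8.76 CPM (-4.10 ± 0.18). Stra8, the gatekeeper of meiosis, measured 15.4 and 35.7 CPM in L2i and had 0 counts in LFAI, at least 246-fold lower. Hormad1, a meiotic chromosome axis protein, fell from 19.7 and 29.5 to 0.126 and 0.327 CPM (-6.74 ± 0.48). Not all germ cell genes followed. Tdrd1, a piRNA pathway gene, rose from 0.598 and 0.332 to 8.24 and 9.28 CPM (4.20 ± 0.45), while Ddx4, the germ cell helicase Vasa, and Sycp3, of the synaptonemal complex, were not called at 9.61 and 12.0 CPM in L2i and 14.2 and 15.7 CPM in LFAI and at 5.29 and 16.6 CPM in L2i and 7.93 and 29.9 CPM in LFAI. Both were called higher with the time course added, and Sycp3 also with no filter on low counts, with only the 4 compared libraries, and without CGR8 at 35 h.

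Printed next are the 250 bases upstream of Dazl and Hormad1, chosen to show the density of CpG in promoters of this group. Every CG is in capitals, in RefSeq sequence of GRCm38.p6 on the gene's strand.

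Dazl (chr17:50293621-50293870, - strand, 20 CG): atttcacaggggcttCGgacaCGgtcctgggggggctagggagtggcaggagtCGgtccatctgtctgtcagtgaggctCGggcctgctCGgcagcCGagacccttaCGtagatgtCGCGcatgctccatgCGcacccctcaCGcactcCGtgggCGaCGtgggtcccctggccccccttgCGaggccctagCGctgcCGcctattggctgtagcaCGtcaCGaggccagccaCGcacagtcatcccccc
Hormad1 (chr3:95559427-95559676, + strand, 19 CG): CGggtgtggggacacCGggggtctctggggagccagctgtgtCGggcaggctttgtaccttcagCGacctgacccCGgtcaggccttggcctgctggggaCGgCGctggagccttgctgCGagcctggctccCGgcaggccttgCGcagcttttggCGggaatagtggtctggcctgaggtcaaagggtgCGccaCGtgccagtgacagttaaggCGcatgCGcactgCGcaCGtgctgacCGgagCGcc

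The 22 called-lower germline genes with a promoter in the table had a median of 17.5 CG in 300 bases, against 8 over all 27025 genes. The E-box CACGTG, on both strands, was found in 6 of them (27.3%, against 8.09% of all 27025 genes, which include genes not tested here). It was also found in 3 of 9 called-lower Wnt targets (33.3%) and in 2 of 11 called-higher ERK members (18.2%). A high share was thus not particular to the germline list, and the motif itself holds a CG. The called ERK members, which rose, had a median of 21 CG, so the CG count was high in a group that moved the other way too.

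The count of lower germline members was 19 in place of 27 with the time course added, and 23 with a stricter filter on low counts. In the R1 time course the germline list had a median of -0.21 in place of -3.71. With its day 0 and day 4 libraries added to the fit, 4 in place of 2 members were called higher, and without the CGR8 LFAI library 1 was. The 2-cell-like genes, a set of transcripts from the embryo's first genome activation that rare stem cells switch on, had opposite signs in the 2 sets. In the 2 lines 15 of 16 tested members fell and 1 rose (median -6.32, or -4.90 with bounds, against 2.29 in the time course). Zscan4d, a telomere-related zinc finger gene, measured 1.56 and 17.2 CPM in L2i and 0.189 and 0.261 CPM in LFAI, so most of the signal came from CGR8 in L2i. In the time course its log2 difference was 2.08. The count of lower 2-cell-like members was 9 without the CGR8 LFAI library, 8 with a stricter filter on low counts and 3 with the time course added. The 1 higher member lost its call without R1 L2i, R1 LFAI or R1 at 35 h, and without the line as a block. These genes lie in families of near-identical copies, and multiply aligned reads were not counted, so single members are uncertain.

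The E-cadherin gene Cdh1 measured 926 and 871 CPM in L2i and 1220.2 and 1116 CPM in LFAI and was not called (adjusted p = 0.085), except as higher with no filter on low counts. Epcam, an epithelial adhesion molecule, rose from 36.1 and 23.0 to 328 and 347 CPM (3.54 ± 0.29), and Esrp1, the splicing factor that sets epithelial isoforms, rose from 1.24 and 0.93 to 191 and 192 CPM (7.46 ± 0.37, adjusted p = 1.1e-06). Zeb1 and Snai1, repressors of epithelial genes, fell from 30.8 and 34.0 to 1.89 and 0.98 CPM and from 5.61 and 4.98 to 0.944 and 0.523 CPM. The mesenchymal intermediate filament gene Vim and the matrix gene Fn1 fell from 204 and 317 to 90.1 and 58.5 CPM and from 1306 and 1676 to 199 and 125 CPM. Over the list of cadherins and EMT regulators 10 of 21 tested genes rose and 4 fell.

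Tight junction genes rose in 10 of 16 tested cases and fell in 3. Cldn6 rose from 9.24 and 4.58 to 372 and 337 CPM (5.67 ± 0.40, adjusted p = 6.4e-06), and Cldn7 rose from 3.95 and 1.53 to 135 and 126 CPM (5.57 ± 0.37). At 35 h Cldn6 was at 37.2 and 23.2 CPM, nearer to L2i than to 4 days. Jam2, a junctional adhesion molecule, went the other way, from 356 and 396 to 1.07 and 0.653 CPM (-8.77 ± 0.43). Of 26 apical polarity and lumen genes 13 rose and 6 fell. Crb3, an apical determinant, rose from 3.13 and 3.19 to 68.8 and 80.2 CPM (4.55 ± 0.26), and Podxl, the sialomucin that lines the early lumen, rose from 14.8 and 17.0 to 147 and 127 CPM (3.11 ± 0.19). Without R1 L2i, 3 in place of 6 apical genes were called lower.

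The basement membrane list was mixed, with 6 of 27 higher and 9 lower. The linker protein gene Nid1 fell from 552 and 518 to 14.2 and 5.82 CPM (-5.74 ± 0.45), and the laminin chain gene Lama1 fell from 36.8 and 118 to 3.46 and 2.74 CPM (-4.45 ± 0.79), while the chain gene Lamb1 rose from 46.3 and 74.8 to 199 and 202 CPM (1.74 ± 0.26). All 4 cultures were grown on an added basement membrane extract.

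Actin and contractile genes rose together in the 2 lines: 19 of 25 tested members were called higher and none lower, with a median of 1.49. The lower count was 1 without R1 LFAI and 2 with the time course added. Tagln, an actin-bundling protein of smooth muscle, rose from 0.184 and 0.0664 to 341 and 176 CPM (11.09 ± 0.48, adjusted p = 8.0e-07). At 35 h it measured 0.978 and 0.0649 CPM. Cnn1, or calponin, rose from 0.046 and 0 to 83.4 and 39.3 CPM, from 1 count in L2i, a count ratio of 2273 (95% counting interval 408 to 89829). The myosin light chain gene Myl9 and the tropomyosin gene Tpm1 rose from 0.138 and 0.0664 to 40.0 and 42.5 CPM and from 88.5 and 77.8 to 741 and 582 CPM. Acta1, the skeletal actin gene, had 0 counts in L2i and 16.2 and 11.6 CPM in LFAI, at least 171-fold higher. The crosslinker Flna rose from 487 and 691 to 2017 and 1474 CPM (1.56 ± 0.24), while the abundant Actb was not called, at 1877 and 1579.9 CPM in L2i and 1720.4 and 1706 CPM in LFAI. In the time course, on another coating, the median of this list was 0.08, with Tagln at 3.57 and Tpm1 at 0.07. The part of the coating was not tested.

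Metabolic genes moved in both directions within a pathway. Over all tested genes 23% were called higher and 24.5% lower, so counts of both signs are common in any list. Of 29 glycolysis and pyruvate genes 10 rose and 8 fell. Slc16a3, the lactate exporter, rose from 10.7 and 16.2 to 320.5 and 377 CPM (4.74 ± 0.44). Ldhb, the lactate dehydrogenase chain of oxidative tissue, fell from 581 and 688 to 105 and 150.2 CPM (-2.33 ± 0.15), and the phosphofructokinase gene Pfkp fell from 297 and 229.9 to 47.3 and 45.6 CPM (-2.52 ± 0.32). Of the glucose transporters, Slc2a3 fell from 1251 and 1590.0 to 273 and 404 CPM (-2.09 ± 0.20) and Slc2a1 rose from 156 and 236 to 287 and 437 CPM (0.88 ± 0.13). Only 3 of these genes were called higher without CGR8 L2i. Of 22 genes of fatty acid synthesis and oxidation 4 rose, 7 fell and 11 were not called. The higher count was 2 without CGR8 L2i or R1 LFAI, and the lower count 3 without R1 L2i, CGR8 L2i or CGR8 LFAI. The lowest member, Cpt1a, the gate of mitochondrial fatty acid oxidation, fell from 122 and 150.2 to 9.25 and 10.4 CPM (-3.78 ± 0.25).

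Of 36 nuclear genes of the respiratory chain and ATP synthase, 3 were called higher and 3 lower, with a median of -0.01. Here 47.5% of all tested genes were called. The higher count was 1 without R1 L2i and 0 without CGR8 LFAI, and the lower count 1 without R1 L2i or R1 LFAI and 7 without CGR8 L2i. The lowest member was Cox7a1, a cytochrome oxidase subunit, which fell from 34.7 and 26.1 to 4.15 and 3.92 CPM (-2.92 ± 0.31). The median of 11 tested mitochondrially encoded genes was 0.09 in R1 and -0.90 in CGR8. The groups did not overlap in 3 of them, against 74.0% of all tested genes. Of these 11 genes 3 were called lower and none higher. That count was 1 without CGR8 L2i, 5 without R1 L2i and 0 with the time course added, and 1 gene was called higher without CGR8 L2i. mt-Co1, a cytochrome oxidase subunit, fell from 5179 and 7171 to 3104 and 3852 CPM (-0.83 ± 0.20), with CGR8 in L2i the highest library, and its call was lost without that library and with the time course added, where it was 0.11.

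Cholesterol synthesis genes rose in 15 of 24 cases and fell in 2, mostly by small amounts (median 0.49). Without R1 L2i 4 were called higher and 1 lower, and without CGR8 LFAI 1 lower. Lss, lanosterol synthase, rose from 79.7 and 86.0 to 248 and 238 CPM (1.55 ± 0.13). Fdps, farnesyl diphosphate synthase, rose from 15.7 and 17.0 to 39.3 and 32.9 CPM (1.14 ± 0.22).

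Genes of the ATF4 stress response and of serine synthesis rose in 18 of 23 cases and fell in 1 (median 1.23, against 0.22 in the time course). Without CGR8 L2i 11 were called higher, and 2 in place of 1 lower without CGR8 LFAI or either 35 h library. Phgdh, the first enzyme of serine synthesis, rose from 79.8 and 50.7 to 243 and 262 CPM (2.00 ± 0.25), and Slc7a3, a cationic amino acid transporter, rose from 202 and 199 to 769 and 819 CPM (1.98 ± 0.17). The exception was Asns, asparagine synthetase and a textbook ATF4 target, which fell from 1093 and 900.2 to 473 and 591 CPM (-0.89 ± 0.18). Atf4 itself measured 512 and 364 CPM in L2i and 488 and 679 CPM in LFAI and was not called, except without R1 LFAI and with no filter on low counts.

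Of 31 tested imprinted genes 17 rose and 4 fell, with a median of 1.04 (1.28 in the time course). The maternally expressed RNAs Meg3 and Rian of the Dlk1-Dio3 region rose from 33.6 and 70.5 to 264 and 286 CPM and from 73.6 and 154 to 688 and 781 CPM. Grb10, an adaptor that restrains growth signalling, rose from 51.1 and 44.8 to 601 and 563 CPM (3.61 ± 0.25), and Nnat, neuronatin, rose from 0.322 and 0 to 79.4 and 13.9 CPM (7.89 ± 0.71). Plagl1, a zinc finger factor, fell from 93.5 and 28.6 to 3.78 and 0.0653 CPM (-5.08 ± 0.68). H19 rose from 0.643 and 0 to 5.92 and 0.98 CPM (3.35 ± 0.46), at low and unequal levels in the 2 lines, and its call was lost without the line as a block. The gene tables hold no alleles, so whether a rise came from the active or the silenced copy was not measured. Without R1 L2i, 2 in place of 4 imprinted genes were called lower.

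Polycomb subunits fell in 14 of 31 cases and rose in 4. Suz12 and Eed, core parts of the methyltransferase complex PRC2, fell from 436 and 487 to 153 and 155 CPM (-1.58 ± 0.14) and from 234 and 247 to 92.5 and 114 CPM (-1.22 ± 0.13), and its accessory subunit Mtf2 fell from 404 and 475 to 111 and 116 CPM (-1.95 ± 0.13). The catalytic subunit Ezh2 was not called, except without CGR8 LFAI, at 233 and 213 CPM in L2i and 163 and 205 CPM in LFAI. Phc1, of the complex PRC1, rose from 288 and 296 to 685 and 677 CPM (1.22 ± 0.13). The count of higher members was 2 without R1 L2i.

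Lists of growth and survival regulators moved in both directions. Cdkn1a, the inhibitor p21, fell from 248 and 236 to 47.6 and 70.9 CPM (-2.04 ± 0.19), while Ccnd2, cyclin D2, rose from 0.368 and 0.996 to 14.1 and 13.3 CPM (4.40 ± 0.61). Of 22 cyclins and CDK inhibitors 2 rose and 11 fell. Of 13 genes of the Myc and Mxd family 4 rose and 5 fell, and of 13 genes of the let-7 axis 4 rose and 1 fell. Fewer Myc and Mxd genes were called lower without 1 library, 3 without R1 L2i or R1 LFAI and 2 without CGR8 LFAI. The let-7 axis had 2 lower without R1 LFAI or either 35 h library. Myc rose from 8.09 and 7.97 to 94.8 and 53.7 CPM (3.17 ± 0.23), and Lin28b rose beside Lin28a, from 8.14 and 8.7 to 96.4 and 94.6 CPM (3.51 ± 0.22). Of 27 genes of the Bcl2 family and p53 targets 10 rose, 5 fell and 12 were not called, with a median of 0.00, and without R1 L2i 6 were higher. The proapoptotic gene Bcl2l11, known as Bim, rose from 15.6 and 14.5 to 88.7 and 61.8 CPM (2.31 ± 0.17), and Bbc3, known as Puma, rose from 17.6 and 18.0 to 55.6 and 74.4 CPM (1.87 ± 0.22).

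Surface markers used to sort these states changed. Pecam1, a marker of naive cells, fell from 159 and 128 to 2.39 and 2.22 CPM (-5.97 ± 0.28), and the tetraspanin gene Cd9 fell from 333 and 313 to 56.5 and 35.0 CPM (-2.83 ± 0.21). Cd24a, a marker of primed cells, rose from 49.6 and 77.5 to 123 and 146 CPM. All 16 tested surface genes were called, 6 higher and 10 lower.

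The 15 largest fitted folds each way rest mostly on genes with few or no counts in the lower group, so their order is not given. Car4, a membrane carbonic anhydrase, had 0 counts in L2i and 156 and 142 CPM in LFAI, at least 1830.5-fold higher. The ubiquitin ligase gene Trim67, the matrix gene Spon1 and the calcitonin receptor gene Calcr also had 0 counts in L2i, and were at least 383-fold, 336-fold and 262-fold higher. Their LFAI values were 33.9 and 28.4, 26.9 and 28.0, and 21.9 and 20.7 CPM. On the falling side Trpm1, a cation channel, measured 78.5 and 139 CPM in L2i and 0 counts in LFAI, at least 1075-fold lower. Osm, a cytokine of the LIF family, measured 29.9 and 34.9 CPM in L2i and 0 counts in LFAI, at least 332-fold lower. All of these moved the same way in the time course, Car4 to 46.7 CPM and Trpm1 from 96.0 to 0.358 CPM.

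Markers of other cell types were examined as whole lists. Of neural progenitor markers 2 of 11 tested rose and 6 fell, with summed levels of 302.5 and 168.1 CPM in L2i and 727 and 439.1 CPM in LFAI. Nes, an intermediate filament gene that primed epiblast also expresses, made up most of the LFAI sum and rose from 43.3 and 28.4 to 578 and 366 CPM (3.71 ± 0.16). The neural factor Sox1 stayed below 1 CPM in all 4 libraries, and Pax6 fell from 5.01 and 3.98 to 1.51 and 0.588 CPM, a call lost with the time course added, where it was higher at day 4 (2.93). Without R1 L2i 3 neural markers were called lower. Of streak, mesoderm and endoderm markers 2 of 11 rose and 4 fell, with summed levels of 34.2 and 33.3 CPM in L2i and 22.4 and 15.3 CPM in LFAI. Msgn1 and Cer1 were at 0 in all 4 libraries, and Mesp1 had 1 count. Primitive endoderm markers rose in 3 of 12 cases and fell in 3, with Gata6, Sox17 and Foxa2 below 1 CPM in all 4 libraries. Their summed levels were 415.1 and 430.5 CPM in L2i and 718.8 and 526.8 CPM in LFAI, mostly Sparc and laminin genes.

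Trophoblast markers rose in 5 of 15 cases and fell in 6, with sums of 152.1 and 144.7 CPM in L2i and 432.1 and 143.4 CPM in LFAI. The keratin genes Krt8 and Krt18 held most of the R1 rise, going from 8.6 and 5.18 to 204 and 50.8 CPM and from 1.79 and 1.13 to 156 and 68.0 CPM, while Cdx2 was at 0 in LFAI and Elf5 below 1 CPM throughout. Fibroblast markers rose in 4 of 8 cases and fell in 1, with sums of 42.9 and 30.0 CPM in L2i and 82.4 and 54.2 CPM in LFAI. The 1 lower member lost its call without either CGR8 library. Lum was at 0 in all 4 libraries, and Dcn went from 0 counts to 2.27 and 2.87 CPM. Blood and endothelial markers rose in 2 of 9 cases and fell in 3, with Pecam1 making up most of the L2i sum and Lyz2 and Hba-a1 at 0 in all 4 libraries. The part of other cells in the changes above was not tested. In bulk RNA fewer cells of a type and less RNA per cell cannot be told apart.

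By position, the median log2 difference of every autosome but chromosome 8 lay within 0.22 of 0 in both lines. Chromosome 15 was highest, at 0.22 in R1 and 0.20 in CGR8. Chromosome 8, with 794 tested genes, was the exception, at -0.26 in R1 and 0.09 in CGR8 (-0.05 in the R1 time course). Its genes were higher in R1 than in CGR8 by a median of 0.36 in L2i and 0.34 at 35 h, and by 0.07 in LFAI at 4 days. Of its tested genes 19.9% were called higher and 28.2% lower, against 23% and 24.5% of all tested genes. These shares were not particular to it: chromosome 4 had 21% and 29.2%, and chromosome 9 had 19.9% and 26.2%. The R1 LFAI library came from an earlier passage than the R1 L2i library, and copy number was not measured.

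**Figure D4:**
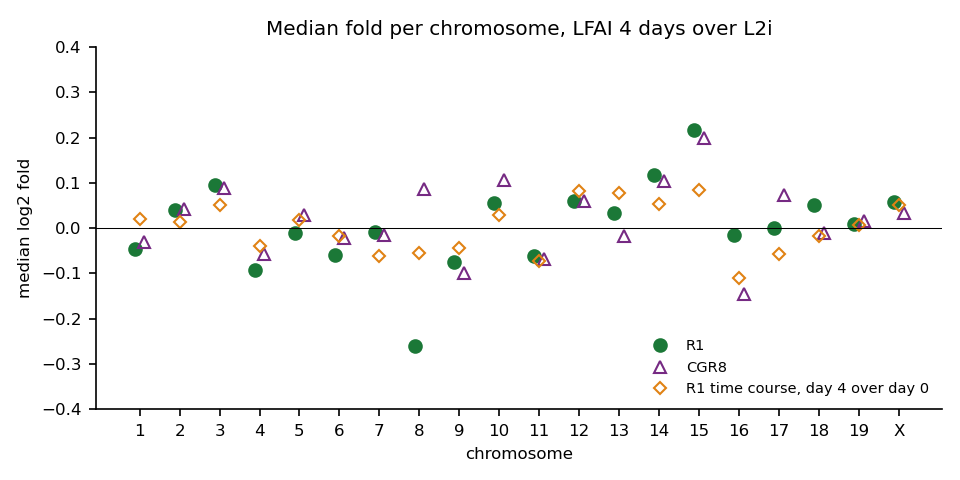
Median log2 difference of LFAI over L2i (y axis) for the tested genes of each autosome and the X chromosome (x axis), in R1 (green circles), CGR8 (purple triangles) and, day 4 over day 0, in the R1 time course (orange diamonds). Of the chromosomes plotted, the lines lie farthest apart at chromosome 8, where R1 is at -0.26 and CGR8 at 0.09.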

How the data were processed

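RNA was sequenced as stranded poly(A) libraries, per the labels' protocols. The deposited files hold raw read counts per gene, which the authors made with HISAT2 2.0.4 and HTSeq 0.6.1 on GRCm38/mm10, per the submitters' processing notes. The annotation release and the strand setting are not given in the sources used here. Entries without a gene made up 48.6 to 51.9% of each of the 4 files, mostly multiply aligned reads (42.2 to 45.2%), and stayed out of library sizes. Names, positions and classes came from GENCODE M21, which matched 47310 of 47729 gene IDs. The counts were fitted with edgeR 4.0.16 (R 4.3.3) over 8 libraries, R1 and CGR8 in L2i, LIM and LFAI (35 h, 4 days), which shared 1 estimate of spread, with group and line as terms. Genes were kept by filterByExpr, scaled by TMM, tested with the two-sided quasi-likelihood test on LFAI minus L2i, and adjusted by Benjamini-Hochberg over all tested genes at 0.05. Line numbers pair the samples because the same line stands in every group. The deviations of the lines from their group means had r = 0.145 between L2i and LFAI at 4 days. Folds against 0 counts use a floor of 3 counts over both libraries, and count ratios an exact binomial 95% interval. Both cover counting error only. Named genes are members of the lists, the 15 largest folds each way, the 10 largest CPM changes and smallest p each way, and genes moving opposite ways in the lines. The members and lists were chosen with earlier results of these data known. A few listed genes are not reported here. The fit was tested on simulated data. Alternatives were another normalization, other filters, DESeq2 1.42.0, limma 3.58.1, other designs and each library left out.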

Additional observations from a re-analysis of the deposited data

Results flagged for a closer look

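Plce1 and Slc38a4, neither called, had log2 differences of opposite sign in the 2 lines, of more than 1 on the log2 scale in each. These are single libraries, so the difference between the lines was not tested. Plce1, a phospholipase C, had a log2 difference of -1.30 in R1 and 1.22 in CGR8, from 34.8 and 5.25 to 14.0 and 12.3 CPM. Slc38a4, an imprinted amino acid transporter, had 1.95 in R1 and -1.14 in CGR8, from 15.7 and 108 to 60.9 and 48.7 CPM. In both genes the lines differed in L2i and were close together in LFAI. In the R1 time course Plce1 measured 41.9 CPM at day 0 and 10.4 CPM at day 4. Slc38a4 measured 181 CPM at day 0 and 97.9 CPM at day 4 there, a log2 difference of -0.89. Its R1 level in L2i thus differed between the sets, and at day 0 lay above the CGR8 library in L2i. The endoderm factor Foxa2 also had opposite signs, -2.14 in R1 and 1.65 in CGR8, but at levels of 0.414 and 0 CPM in L2i and 0 and 0.261 CPM in LFAI, so a handful of counts sets both values. That difference was not tested either.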

How the results depend on the processing

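The number of called genes depended most on the libraries and on the size demanded of a change. Against 3573 higher and 3798 lower genes, other normalizations, filters, tools and designs gave 3279 to 3692 higher and 3435 to 4192 lower. A test for more than a 2-fold change gave 1498 and 1800. Leaving out 1 library gave 2249 to 3567 higher and 2745 to 3843 lower. The line is the replicate block: with no replicate block 3342 genes were higher and 3618 lower. All 20 naive factors were called lower in each of these settings except with the time course added, where 19 were. The 13 higher formative genes ranged from 13 to 13 over libraries left out, and the 2 lower ones from 1 to 2. For ERK genes the left-out libraries gave 10 to 17 higher and 0 to 2 lower, and the 2-fold test 0 lower. The 2-fold test left 4 Nodal pathway genes higher. Lower germline genes numbered 19 with the time course added, against 27 in the chosen fit. Higher germline genes numbered 4 with the time course added, and 1 to 3 with a library left out. Among named genes only Slc38a4, called higher with no filter on low counts but not in the chosen fit, turned direction with a call, to a log2 difference of -0.93 without the R1 LFAI library, against 1.69 without the CGR8 LFAI library. The causes were not tested. Genes near 0 counts are limited by depth, and their folds are bounds.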

Other observations

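Guidance molecules, which steer growing axons but also cell sorting in the embryo, moved in both directions. Of 33 tested ephrin, semaphorin and related genes 10 rose and 12 fell. The ephrin receptor Epha1 rose from 0.827 and 1.26 to 90.4 and 70.2 CPM (6.29 ± 0.32), while its relative Epha4 fell from 117 and 136 to 2.52 and 1.5 CPM (-5.95 ± 0.30). The ligand Efnb2 rose from 2.02 and 2.32 to 51.2 and 42.3 CPM (4.43 ± 0.21) and Efnb1 fell from 11.2 and 6.57 to 0.629 and 0.392 CPM (-4.10 ± 0.40). Sema6a rose from 3.81 and 1.66 to 199.6 and 169 CPM (6.23 ± 0.45), and Ntn1, netrin, fell from 106 and 152 to 0.503 and 0.784 CPM (-7.63 ± 0.51). Every gene named in this paragraph moved the same way in the R1 time course.

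Lysosomal genes fell in 13 of 31 cases and rose in 5. The regulators Mitf and Tfeb fell from 38.4 and 49.0 to 1.45 and 1.37 CPM and from 28.1 and 41.2 to 4.53 and 4.12 CPM, whereas Tfe3, another member of this family, rose from 118 and 132 to 187 and 175 CPM (0.53 ± 0.15), a call lost without either R1 library. The hydrolase gene Ctsb fell from 202 and 244 to 65.1 and 69.2 CPM (-1.73 ± 0.14). Of 18 Notch pathway genes 7 rose and 6 fell. The receptor Notch3 rose from 56.0 and 67.3 to 266 and 323 CPM (2.25 ± 0.13) and the receptor Notch1 fell from 75.7 and 88.3 to 45.2 and 28.4 CPM (-1.16 ± 0.26).

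Among annotated classes, 33.1% of 293 long intergenic RNA genes fell and 18.4% rose, against 25.1% and 24.5% of 13801 protein-coding genes. The long intergenic RNA genes had a median log2 difference of -0.50, against -0.07 in the R1 time course. Of 49 unprocessed pseudogenes 23 fell and none rose, with a median of -2.37 against 0.07 in the time course. Of 10 tested genes on the Y chromosome 6 fell and none rose, with a median of -0.80 against 0.07 in the time course. These falls thus did not reappear there as medians. Uba1y, the Y-linked ubiquitin-activating enzyme gene, fell from 50.7 and 37.6 to 0.881 and 1.11 CPM, and was named after its values were seen.

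Antioxidant and hypoxia genes gave 9 higher and 12 lower of 27. The peroxidase gene Gpx4, which guards membranes against lipid peroxidation, fell from 629 and 576 to 139.7 and 97.5 CPM (-2.34 ± 0.27), and the mitochondrial dismutase gene Sod2 fell from 314 and 311 to 82.8 and 81.9 CPM (-1.92 ± 0.13). Epas1, a hypoxia-inducible factor, fell from 54.3 and 21.6 to 3.84 and 2.22 CPM (-3.59 ± 0.32), after 131 and 130.2 CPM at 35 h. Its relative Hif1a rose from 138 and 143 to 243 and 251 CPM (0.81 ± 0.15).

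The retinoic acid list gave 4 higher and 5 lower of 18, and 2 higher without R1 L2i, CGR8 L2i or CGR8 LFAI. Crabp2, which carries retinoic acid to its receptors, rose from 2.67 and 1.93 to 35.7 and 44.4 CPM (4.09 ± 0.22).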
